A study of Mus musculus with 6 samples.

Results

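Expression of 10 genes of the Notch pathway was followed in cells of the fetal mouse small intestine: the receptors Notch1, Notch2 and Notch3, the ligands Jag1 and Dll1, and the effectors Hes1, Hey1, Hey2, Heyl and Nrarp. They were found by their symbols among the 24568 genes of the deposited matrix, and all 10 had counts. Notch receptors are cut when a ligand on a neighbouring cell binds them, and the freed intracellular part joins the DNA-binding protein RBPJ to switch on targets such as the HES and HEY repressors. Dll1 and Jag1 are membrane-bound ligands, and Nrarp is a feedback inhibitor that is itself a target. In mesenchyme the pathway is best known from mural cells of blood vessels, where NOTCH3 acts in smooth muscle cells and pericytes, and in the gut epithelium it directs the choice between absorptive and secretory cells.

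The tissue came from C57/BL6 mice of a Pdgfra-H2BGFP line, in which the Pdgfra locus drives a nuclear green fluorescent protein. All groups carried this reporter. MULTI-seq, which marks cells with lipid-bound DNA barcodes before pooling, was combined with droplet capture and counting of transcript 3' ends. There were 6 samples in 4 groups. Tissue of E15.5 and E16.5 was loaded as 2 samples of all live cells and 1 enriched sample, and tissue of E13.5, E14.5 and E18.5 in the same way. Sorted cells excluded DAPI and lacked Ter119, a red cell protein, and the enriched samples kept cells with strong GFP from the Pdgfra locus or with CD31, CD45 or Epcam, surface proteins of endothelium, leukocytes and epithelium. Replicates of each age were pooled.

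One matrix holds all cells, and no label ties its 6 barcode suffixes to samples, ages or sorts. The suffixes were therefore used as 6 technical sets, named A1, A2 and A3 for the first ending and B1, B2 and B3 for the second. There is no replication, so no test was made, and every interval printed is a 95% interval for counting error only. After filters 12626 of 13127 cells were kept, with 98367768 unique molecular identifiers (UMIs). Median UMIs per cell were 12127, 13586 and 7051.5 in A1, A2 and A3, and 4180, 4116 and 3548 in B1, B2 and B3. Pairs of sets shared at most 3 barcodes. Levels are given as CPM, the UMIs of a gene scaled to a fixed total per set, and a gene counts as called in a comparison when it reached 20 CPM on 1 side and differed at least 2-fold.

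The makeup of the sets differed. Clusters rich in Pdgfra and its companion markers, here called PDGFRA-high mesenchyme, held 6.62% of cells in A1, 4.46% in A2 and 94.8% in A3, and 16.1%, 18.49% and 90.2% in B1, B2 and B3. The class depended on the clustering resolution, above all in ending A: at resolution 0.5 it held 2.03%, 1.87% and 87.5% of A1, A2 and A3, and at resolution 2 it held 1.14%, 0.767% and 30.1%, with 58.0% of A3 unnamed. In ending B it held 19.7%, 21.5% and 91.9% of B1, B2 and B3 at resolution 0.5 and 13.2%, 14.7% and 79.1% at resolution 2. Most other cells were mesenchyme rich in collagen transcripts. Transcripts of other lineages were also unevenly spread. Of 5 enterocyte genes (Fabp1, Fabp2, Apoa1, Apoa4 and Rbp2), all 5 reached 20 CPM in A1, A2 and A3 and 1 did in B3. Their summed level was 492, 472 and 2330 CPM in A1, A2 and A3 and 35.2, 31.9 and 55.7 CPM in B1, B2 and B3. Of 9 endothelial markers, 2 reached 20 CPM in A3 and 2 in B3 but none in the other sets, and their summed level was 28.7, 31.4 and 135 CPM in A1, A2 and A3 and 39.4, 36.6 and 90.2 CPM in B1, B2 and B3. Summed levels of 9 epithelial markers were 56.3, 53.5 and 395 CPM in A1, A2 and A3 and 44.1, 45.0 and 123 CPM in B1, B2 and B3. No cluster was named endothelial or epithelial. However, the PDGFRA-high cluster A-c1 of ending A had all 9 epithelial and 3 endothelial markers at 4-fold over the rest. It kept its name because 10 PDGFRA-high markers also passed. PDGFRA-high cluster A-c12 had 4 epithelial and 6 immune markers at 4-fold, and 8 of its own class. The part of such foreign transcripts in the levels of Notch genes was not tested.

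RBPJ binds DNA at the core letters TGGGAA. Windows from 250 bases before to 50 bases after the start were taken from RefSeq (GRCm38.p6) for 7 of the 10 members (8 windows, since Dll1 has 2) and for the contractile gene Acta2, which is used below. TGGGAA, read on both strands, was present in 25.6% of all 32851 windows in the table, and at least 2 copies were present in 3.79%. No window was available for Hes1, Hey1 or Heyl, so they were not searched. Among the 7 members searched, Hey2 was the only one with a match, with 2 copies that begin 207 and 3 bases before the start. Acta2 had 1 copy that begins 27 bases before the start. Both stretches are printed because they are the windows of a Notch effector and of a contractile gene that hold the motif, which stands in capitals (in Hey2 the first copy is on the opposite strand). A match describes the letters of the window and is not evidence of binding.
Hey2, chr10:30842781-30843033, minus strand: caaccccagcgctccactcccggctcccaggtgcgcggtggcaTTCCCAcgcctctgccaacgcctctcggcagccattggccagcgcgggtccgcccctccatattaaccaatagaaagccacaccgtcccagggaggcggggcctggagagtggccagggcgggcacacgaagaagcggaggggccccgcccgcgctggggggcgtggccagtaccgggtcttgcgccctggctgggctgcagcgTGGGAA
Acta2, chr19:34255374-34255623, minus strand: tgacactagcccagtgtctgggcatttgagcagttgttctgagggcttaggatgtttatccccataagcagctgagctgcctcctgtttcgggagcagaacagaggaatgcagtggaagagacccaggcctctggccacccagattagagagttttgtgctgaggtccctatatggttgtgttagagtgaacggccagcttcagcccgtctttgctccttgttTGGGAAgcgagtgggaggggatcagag

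Among the receptors, Notch2 and Notch3 were low in both sets of number 3, and Notch1 was lower there to a smaller extent. Notch2 was at 22.6, 22.2 and 6.89 CPM in A1, A2 and A3, and at 59.4, 63.1 and 11.3 CPM in B1, B2 and B3. Its levels in B1 and B2 exceeded those of all other sets, with intervals that did not overlap theirs. Notch3, the receptor of mural cells, was at 28.1, 25.3 and 7.43 CPM in A1, A2 and A3 and at 22.0, 20.9 and 8.21 CPM in B1, B2 and B3. Sets A3 and B3 thus held the lowest levels of both receptors. Notch1 was at 20.4, 20.2 and 14.3 CPM in the A sets and at 11.04, 10.3 and 6.99 CPM in the B sets. Every B set lay below every A set for this gene, although the intervals of B1 (9.08 to 13.3) and A3 (11.99 to 17.0) overlapped.

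The ligands behaved differently from each other. Dll1 was at 21.6, 25.3 and 68.5 CPM in A1, A2 and A3 and at 27.4, 31.8 and 64.0 CPM in B1, B2 and B3. Its highest levels were those of A3 and B3, whose intervals overlapped (63.2 to 74.0 and 58.6 to 69.7 CPM). Jag1 was at 29.2, 27.6, 27.0, 28.5, 28.9 and 25.1 CPM in A1 to B3, and neighbours in that order did not differ beyond their intervals.

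Of the effectors, Hes1, a transcriptional repressor, was at 273, 201 and 172 CPM in A1, A2 and A3 and at 134, 146 and 85.2 CPM in B1, B2 and B3. A1 and A2, whose makeup was alike, differed for this gene beyond counting error, with intervals of 267 to 279 and 196 to 206 CPM. The HEY factors were scarce in all sets. Hey1 lay between 2.33 CPM (B2) and 4.87 CPM (A2), and Hey2 between 3.93 CPM (A2) and 6.13 CPM (B3). Heyl was at 5.79, 4.87 and 1.29 CPM in the A sets and at 3.78, 3.22 and 0.490 CPM in the B sets, so it was lowest where Notch2 and Notch3 were lowest. Nrarp rested on 24, 25 and 27 UMIs in A1, A2 and A3 and on 10, 9 and 8 UMIs in B1, B2 and B3, which gave 2.91 CPM in A3 and 0.776 to 0.994 CPM in the other sets.

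**Figure D1:**
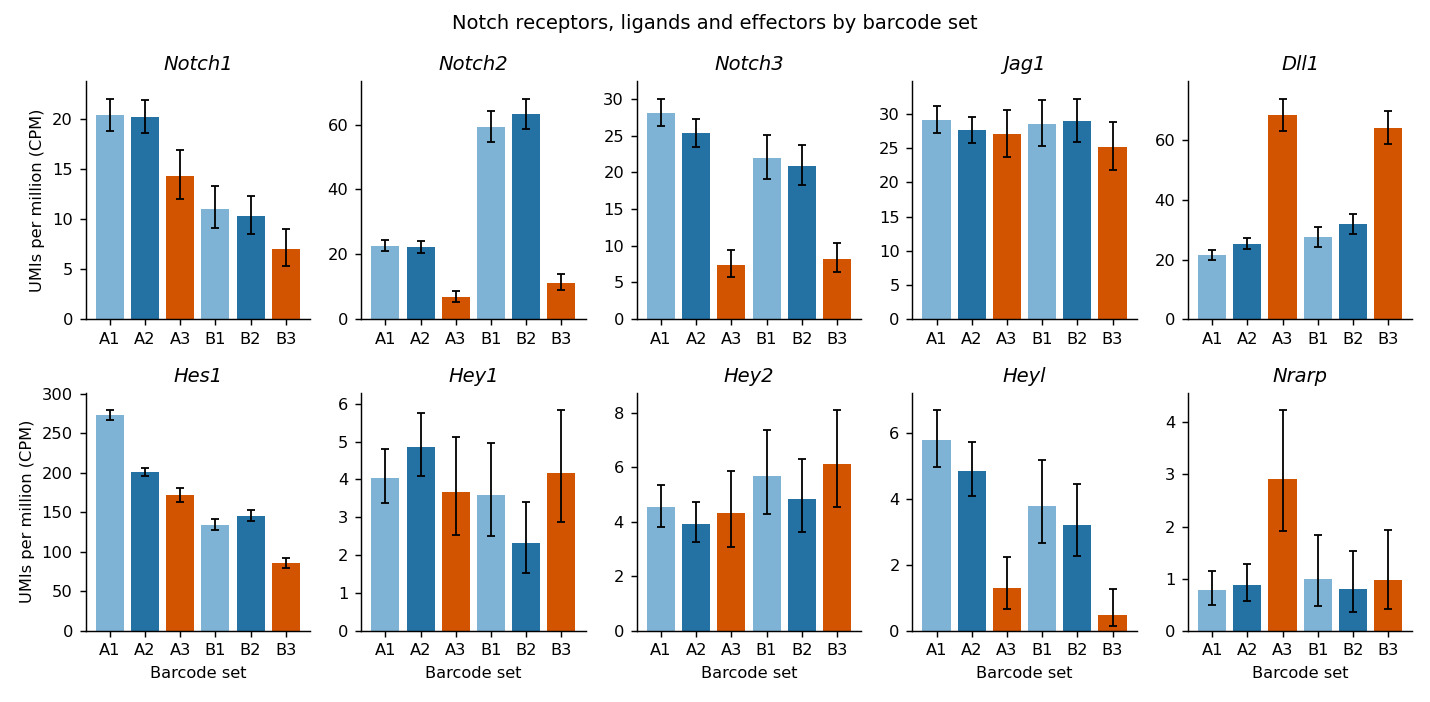
Level of each of the 10 genes in the 6 barcode sets, in CPM; bars are the summed level over kept cells and error bars are exact Poisson 95% intervals. Each panel has its own scale. Dll1 is high and Notch2, Notch3 and Heyl are low in A3 and B3 (orange), and Jag1 is near 25 to 29 CPM throughout.

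Shares of cells with a UMI followed depth and were compared after each cell had been thinned at random to 2000 UMIs, which left out 41 shallower cells. For Dll1, 3.74%, 4.89% and 12.6% of thinned cells in A1, A2 and A3 had a UMI, and 5.41%, 5.44% and 11.3% in B1, B2 and B3. Before thinning these shares were 18.3%, 21.4%, 35.2%, 10.2%, 11.6% and 19.6%. Notch3 was found in 5.12%, 4.46% and 1.02% of thinned A1, A2 and A3 cells and in 3.91%, 3.96% and 1.57% of B1, B2 and B3 cells. Unthinned, the Notch3 shares were 27.9%, 27.96%, 4.92%, 8.77%, 8.33% and 3.03%. Notch2 was found in 4.35%, 4.37%, 1.19%, 9.95%, 11.04% and 1.98% of thinned cells in the same order, and in 23.2%, 24.3%, 5.01%, 20.4%, 21.1% and 3.85% before thinning. Hes1 was found in 36.4%, 28.9%, 20.9%, 20.8%, 21.5% and 13.4% of thinned cells and in 77.4%, 74.3%, 44.9%, 36.1%, 37.1% and 22.0% of unthinned cells. In both endings, as in CPM, set 3 had the highest thinned share for Dll1 and the lowest for Notch2, Notch3 and Hes1. No cell class known to lack these genes was large enough to measure the share that free RNA gives, so low shares are not read as expressing cells.

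Set 3 was then compared with sets 1 and 2 within each ending. In ending A, Dll1 was higher in A3 by a log2 ratio of 1.55 (1.41 to 1.69), from 23.4 to 68.5 CPM. Ending B gave 1.11 (0.94 to 1.28), from 29.7 to 64.0 CPM. Notch3 was lower by -1.85 (-2.22 to -1.50) in A3 and by -1.38 (-1.77 to -1.01) in B3. Notch2 was lower by -1.70 (-2.09 to -1.34) in A3 and by -2.44 (-2.76 to -2.14) in B3. Hence 1 member was called higher and 2 lower among 6 tested in ending A, and 1 higher and 2 lower among 5 tested in ending B. Of all genes tested, 9.65% were called higher and 5.61% lower in A3, and 8.58% higher and 5.38% lower in B3. The median log2 ratio of the tested members was -0.49 in ending A and -0.72 in ending B.

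The other members did not reach 2-fold or lay under 20 CPM. Hes1 was lower by -0.47 (-0.55 to -0.40) in A3 and -0.72 (-0.84 to -0.60) in B3, and the ratio of A1 to A2 for the same gene was 0.44. Jag1 had ratios of -0.07 (-0.27 to 0.12) and -0.19 (-0.43 to 0.04). Notch1 had -0.51 (-0.77 to -0.25) in A3, while in ending B it stayed under 20 CPM with -0.61 (-1.05 to -0.18). Heyl, under 20 CPM, rested on 12 UMIs in A3 against 319 in A1 and A2, a ratio of -2.05 (-3.02 to -1.22), and on 4 UMIs in B3 against 74. Nrarp had 27 UMIs in A3 against 49 in A1 and A2, a ratio of 1.82 (1.09 to 2.53), and 8 UMIs against 19 in ending B, a ratio of 0.13 (-1.27 to 1.39).

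The contractile genes moved the way Notch2 and Notch3 did. Acta2, smooth muscle actin, was at 318 CPM in A3 against 927 in A1 and A2, and at 139 CPM in B3 against 479 in B1 and B2. Tagln, an actin-binding protein of smooth muscle, was at 97.9 against 312 CPM in ending A and at 43.9 against 342 CPM in ending B. Rgs5, a pericyte gene, was also lower in number 3 sets, with 168, 176 and 30.9 CPM in A1, A2 and A3 and 62.8, 67.1 and 22.6 CPM in B1, B2 and B3. The summed level of 7 pericyte markers, Rgs5 included, was 314, 313 and 294 CPM in A1, A2 and A3 and 217, 216 and 244 CPM in B1, B2 and B3.

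The comparison of sets was repeated within PDGFRA-high mesenchyme, where Dll1 no longer differed between sets beyond counting error but some other members did. Dll1 was at 72.8 CPM in A3 and 75.0 CPM in A1 and A2, a log2 ratio of -0.04 (-0.25 to 0.17). In ending B it was at 67.7 and 68.0 CPM, a ratio of -0.01 (-0.25 to 0.24). For Jag1 the ratios were -0.04 (-0.39 to 0.31) and -0.28 (-0.65 to 0.11). Jag1 had -0.56 and -0.997 in ending A at clustering resolutions 0.5 and 2. Hes1 was lower in set 3 of the class, with -0.50 (-0.63 to -0.38) in A3, as large as over all cells, and -0.24 (-0.45 to -0.02) in B3. The direction of Hes1 in ending A turned with the resolution, to 0.39 and 0.60. Notch3, under 20 CPM here, was still lower in A3, at 5.98 against 15.2 CPM and a ratio of -1.34 (-1.92 to -0.77), but -0.60 and -0.43 at the other resolutions. In ending B its ratio was 0.17 (-0.61 to 1.01). Notch2, also under 20 CPM, was lower in B3, at 7.65 against 16.2 CPM and a ratio of -1.08 (-1.68 to -0.49), with -0.23 (-1.02 to 0.60) in ending A. None of the 3 members with 20 CPM (Jag1, Dll1 and Hes1) was called, against 7.16% of genes called higher and 5.7% lower in ending A, and 0.444% higher and 0.28% lower in ending B. In ending A the class was held by different clusters: 676 of the 1117 such cells of A3 were in cluster A-c1, led by Slco2a1 and Npnt, and 165 of the 256 of A1 and A2 were in the dividing cluster A-c10, led by Apela and Procr.

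**Figure D2:**
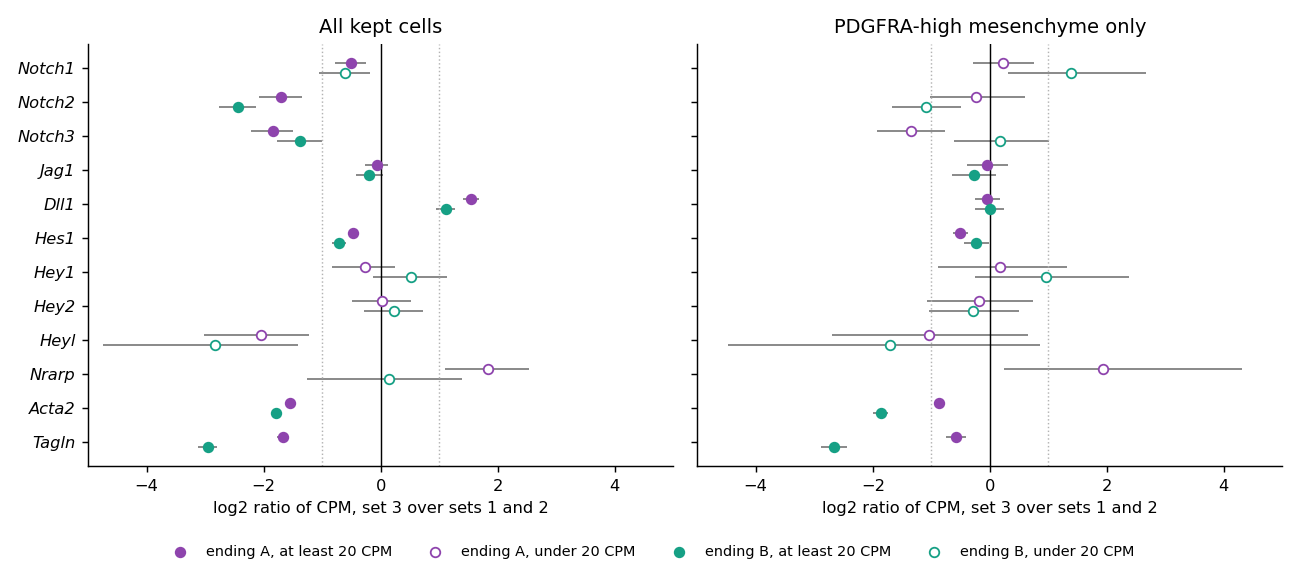
Log2 ratio of CPM in set 3 over sets 1 and 2 for the 10 genes and for Acta2 and Tagln, in all kept cells (left) and in PDGFRA-high mesenchyme only (right); lines are exact 95% counting intervals, filled points reached 20 CPM on 1 side, and dotted lines mark 2-fold. Nrarp in ending B of the right panel is left out because B1 and B2 had no UMI. Dll1 stands at 1.55 and 1.11 on the left and at -0.04 and -0.01 on the right.

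Between the classes taken whole, Dll1 was higher in PDGFRA-high mesenchyme, and Notch2 and Notch3 were higher in the other mesenchyme. Over all 4160 PDGFRA-high cells Dll1 was at 70.9 CPM, against 20.0 CPM in the 7413 cells of the other class. The log2 ratio was 1.83 (1.72 to 1.93). The PDGFRA-high cells of A1, A2, A3, B1, B2 and B3 had 66.4, 89.4, 72.8, 62.9, 71.9 and 67.7 CPM, and the other mesenchyme had 16.1, 20.8, 12.4, 23.5, 25.5 and 42.5 CPM. The class values did not overlap, and Dll1 was higher in 6 of 6 sets. B3 had the narrowest gap.

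Notch2 was lower in PDGFRA-high mesenchyme in 6 of 6 sets, with 7.42 against 34.2 CPM and a ratio of -2.21 (-2.44 to -1.98). Its values in A1, A2, A3, B1, B2 and B3 were 4.396, 8.13, 4.92, 19.1, 14.0 and 7.65 CPM in the PDGFRA-high class and 23.7, 23.1, 28.8, 67.6, 72.8 and 39.1 CPM in the other mesenchyme, without overlap. In both classes B1 and B2 had more Notch2 than A1 and A2. Notch3 was lower in 6 of 6 sets too, with 8.004 against 26.4 CPM and a ratio of -1.72 (-1.95 to -1.50). In the same order Notch3 was at 17.1, 11.8, 5.98, 9.56, 4.26 and 7.37 CPM in the PDGFRA-high class and at 28.6, 26.5, 23.3, 21.6, 24.5 and 15.6 CPM in the other mesenchyme. Only the level of B3 in the other mesenchyme lay within the range of the PDGFRA-high class.

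Hes1 was lower in PDGFRA-high cells by -0.68 (-0.74 to -0.62) and in 6 of 6 sets, though in A1 the ratio was -0.08 with an interval that reached 0.04. Jag1 was at 26.7 and 27.4 CPM, a ratio of -0.04 (-0.17 to 0.10), and was higher in 3 sets and lower in 3. Among members under 20 CPM, Heyl had 22 UMIs in the PDGFRA-high class and 328 in the other, a ratio of -2.30 (-2.99 to -1.68). Notch1 had -0.85 (-1.06 to -0.65) and was lower in 5 of 6 sets, with 0.69 (-0.75 to 2.62) in B3. Hey1 and Hey2 had -0.18 (-0.55 to 0.19) and 0.33 (0.02 to 0.64). Nrarp, with 36 against 56 UMIs, had 0.96 (0.32 to 1.59), but the sets did not share this direction. In A3 Nrarp was at 3.17 CPM in the PDGFRA-high class against 0 in the other. The PDGFRA-high cells of B1 and B2 had no Nrarp UMI. In A1, A2 and B3 the Nrarp ratios were 0.27, -0.16 and -1.39. So 1 member was called higher and 2 lower (3 at clustering resolution 0.5, with Hes1 at -1.08), where 8.24% of 7091 genes were called higher and 6.18% lower in this comparison. The classes were built without the Notch genes among the variable genes.

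Across clusters of at least 50 cells the contrast was graded. In ending A the 4 PDGFRA-high clusters had Dll1 levels between 56.1 and 105 CPM, the highest being A-c13, a cluster led by Aplnr and Bmp3. The lowest Dll1 level there was 1.957 CPM (0.718 to 4.26) in A-c7, a mesenchyme cluster led by Dpt and Aspn. In ending B the highest level, 89.1 CPM (78.6 to 101), was that of B-c4, which was not PDGFRA-high but had Pdgfra at 186 CPM, the most of any cluster outside that class in this ending. B-c4 was led by Kcnk2, and Dll1 itself was among its 10 leading genes. B-c8, led by Gdf10, had 1.05 CPM (0.13 to 3.81).

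Notch2 was highest in A-c0 at 34.6 CPM and in B-c0 at 94.5 CPM, both led in part by Ogn, Sptssb and Dab1. Notch3 was highest in the dividing cluster A-c14 at 38.7 CPM and in B-c5 at 34.1 CPM. Some clusters of other mesenchyme were low in these receptors. A-c15 had Notch2 and Notch3 at 4.54 CPM each, from 2 UMIs each. B-c4 had Notch3 at 7.60 CPM, below the 11.3 CPM of the PDGFRA-high cluster B-c2. Hes1 was highest in the mitotic cluster A-c11 at 324 CPM and in B-c9 at 214 CPM. B-c9 was an unnamed cluster of 248 cells whose leading genes held immune transcripts such as Lyz2 but also Hist1h2bc and Cenpa. Both of the latter were also leading genes of A-c8, a mesenchyme cluster with Hes1 at 302 CPM. At clustering resolution 2, the cluster of ending B with immune markers held 12 cells. A mesenchyme cluster with Hist1h2bc and Cenpa among its leading genes held 244 there. Which cells of B-c9 carried Hes1 was not tested. The lowest Hes1 levels, 71.3 CPM in A-c1 and 67.1 CPM in B-c2, belonged to PDGFRA-high clusters with Slco2a1 and Npnt among their leading genes. A-c13, a PDGFRA-high cluster with Dll1 at its highest, had Hes1 at 264 CPM, so high Dll1 and low Hes1 did not go together in every cluster of the class.

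**Figure D3:**
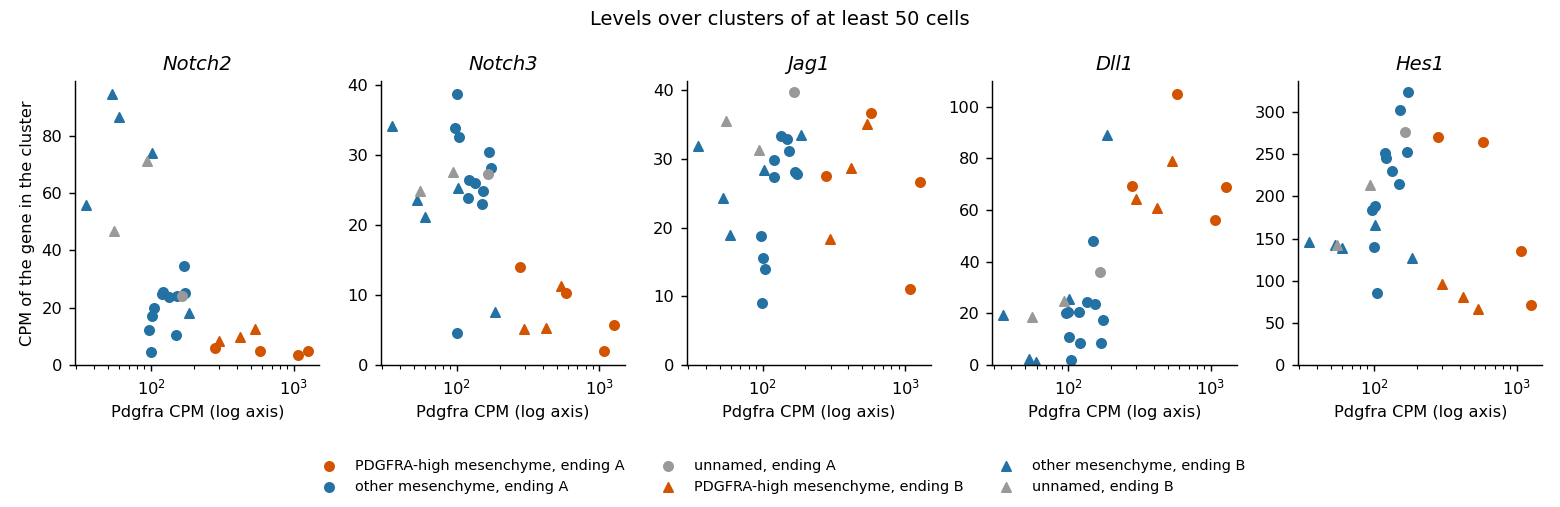
Level of 5 Notch genes against the level of Pdgfra (log axis) in clusters of at least 50 cells, both in CPM; circles are clusters of ending A, triangles of ending B, and colours give the class. Notch2 and Notch3 are low and Dll1 high in the PDGFRA-high clusters, and 1 triangle outside that class, B-c4, has Dll1 at 89.1 CPM.

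Genes whose cluster pattern was most like that of a member were sought among 5469 candidates, by the lower of the Pearson correlations over 16 clusters of ending A and 10 of ending B. For Dll1 they were Cotl1 (0.91 and 0.99) and Foxl1 (0.90 and 0.98), the latter a transcription factor and marker of PDGFRA-high cells. For Notch2 they were Cavin2 (0.95 and 0.99) and Rspo3 (0.98 and 0.95), a WNT-enhancing secreted protein. Notch3 also resembled Cavin2 (0.95 and 0.91), and Itm2a (0.93 and 0.91). Jag1 had weaker partners, Gucy1a1 (0.77 and 0.78) and Mtx2 (0.85 and 0.76), and Hes1 was most like the RNA-binding protein genes Hnrnpm (0.88 and 0.94) and Hnrnpk (0.88 and 0.89). Clusters of an ending share libraries and depth, so these values are a description.

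Over the same clusters the correlation of Notch2 with Acta2 was 0.74 and 0.96, and that of Notch3 with Acta2 0.60 and 0.81. Jag1 had 0.34 and -0.14. Dll1 was inversely related to Acta2, weakly in ending A (-0.31) and more in ending B (-0.77), and to Tagln, with -0.67 and -0.80. These values mix classes, so contractile transcripts were next compared among cells of the same set.

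Cells of each set were thinned to 2000 UMIs and ranked by their Acta2 and Tagln UMIs. Contractile-rich cells (at most the top 10%, with at least 7, 7, 3, 5, 5 and 2 UMIs in A1 to B3) were compared with contractile-poor cells at or below the set median (at most 2, 2, 0, 1, 1 and 0 UMIs). There were 107 to 160 rich and 788 to 1785 poor cells per set. Ratios were pooled over sets as Mantel-Haenszel rate ratios. Other smooth muscle transcripts (such as Myh11, Actg2 and Des) were summed as a check, and were at 2400 against 1213 CPM in rich and poor cells of A1, with the same direction in every set (1513 against 787 CPM in B3).

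No member differed 2-fold in either direction among the 4 that were tested, and over 6638 genes 0.166% were called higher and 0.181% lower. Notch2 was at 44.0 CPM in rich and 27.1 CPM in poor cells, a log2 ratio of 0.69 (0.34 to 1.04). Jag1 was at 41.1 and 26.8 CPM, a ratio of 0.62 (0.25 to 0.98), and was higher in 6 of 6 sets, though by less than 0.01 in B2. Thinning to 1000 UMIs gave -0.11 for Jag1. Hes1 was at 176 and 153 CPM, a ratio of 0.19 (0.02 to 0.37), also higher in 6 of 6 sets, but the ratio was -0.11 when cells were ranked by Tagln alone. Dll1 went the other way, with 23.7 against 42.9 CPM and a ratio of -0.85 (-1.31 to -0.40). The median over the 4 tested members was 0.41, against 0.01 over 25 tested genes of the wider pathway.

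The ratios of Notch2 and Dll1 varied between sets. Their intervals overlapped across sets, so these values cannot decide whether the relations depend on the set. Notch2 was at 95.1 and 96.3 CPM in rich cells of B1 and B2 against 51.2 and 53.2 CPM in poor cells. In A1 and A2 the same comparison gave 22.0 and 22.0 CPM, from 7 and 6 UMIs in rich cells, against 19.2 and 21.8 CPM. Dll1 was at 9.84 and 9.97 CPM in rich cells of B1 and B2, against 37.0 and 34.1 CPM in poor cells, and at 28.1 and 37.8 CPM in rich cells of A3 and B3, against 80.6 and 68.9 CPM. In A1 and A2 Dll1 was at 28.2 and 29.3 CPM in rich cells, from 9 and 8 UMIs, against 19.5 and 26.9 CPM. The ratios there, 0.53 (-0.66 to 1.56) and 0.12 (-1.14 to 1.18), had intervals that included 0. Fewer rich than poor cells were PDGFRA-high in every set (0.625% and 9.31% in A1, 12.4% and 18.8% in B1, 73.6% and 92.2% in B3). Within other mesenchyme alone the ratio of Dll1 was -0.70 and that of Notch2 0.66. Within PDGFRA-high mesenchyme Dll1 had -0.56 and Notch2 -0.08.

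Notch3 and Notch1 stayed under 20 CPM at this depth. Notch3 had 27 UMIs in rich and 279 in poor cells, 15.6 against 17.1 CPM, a ratio of -0.13 (-0.70 to 0.44), and its direction changed with the ranking (0.57 with Acta2 alone and 0.29 with Tagln alone). Notch1 had 18.51 against 12.04 CPM, a ratio of 0.59 (0.05 to 1.12), and was higher in 4 of 6 sets, but thinning to 1000 UMIs gave -0.56. Hey1, Hey2, Heyl and Nrarp gave 1 to 10 UMIs in rich cells, and their ratios, from -0.88 to 0.73, had intervals that included 0. Pericyte markers summed to 400 and 316 CPM in rich and poor cells of A1, 332 and 330 of A2, and 308 and 334 of A3. The sums were 203 and 201 CPM in B1, 238 and 204 in B2, and 173 and 254 in B3. The sum was thus lower in rich cells of both number 3 sets, but single markers went opposite ways. Rgs5 was higher in rich cells in 6 of 6 sets, with 74.9 against 15.9 CPM in A3 and 44.1 against 9.80 CPM in B3. Ndufa4l2 was lower in 6 of 6 sets, with 65.6 against 143 CPM in A3 and 34.6 against 139 CPM in B3. Mki67 and Top2a, genes of dividing cells, summed to 612 and 878 CPM in rich and poor cells of A1 but to 340 and 117 CPM in B3. Among cells with no UMI of either, the ratios were 0.69 for Notch2, 0.61 for Jag1, 0.20 for Hes1 and -0.92 for Dll1.

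The deepest sets allowed a finer look. A1 and A2 were thinned to 8000 UMIs per cell (3914 cells), which gave 353 rich cells with at least 22 (A1) or 21 (A2) UMIs of Acta2 and Tagln and 2068 poor cells with at most 8. Jag1 was again higher in rich cells, with 35.9 against 24.98 CPM and a ratio of 0.53 (0.21 to 0.84). Hes1 was at 259 and 230 CPM, a ratio of 0.18 (0.07 to 0.30). Dll1 was lower, with 19.2 against 26.9 CPM and a ratio of -0.49 (-0.89 to -0.08). At 2000 UMIs the Dll1 intervals of both sets included 0 and also this ratio. Notch3 was at 27.4 and 24.4 CPM, a ratio of 0.17 (-0.18 to 0.52), and Notch2 at 22.4 and 19.2 CPM, a ratio of 0.22 (-0.17 to 0.61). A Notch3 difference of 2-fold lies outside that interval.

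Notch3 was also read in steps of contractile UMIs. In A1 and A2 thinned to 2000 UMIs, cells with 0, 1, 2 to 3, 4 to 5, 6 to 7 and at least 8 UMIs of Acta2 and Tagln had Notch3 at 16.9, 23.5, 27.5, 32.3, 37.7 and 25.1 CPM. The level rose with each step up to 6 to 7 UMIs and was lower at the last step. The interval at 6 to 7 UMIs (23.6 to 57.0) overlapped that at 0 UMIs (11.3 to 24.3) only narrowly. Such an overlap cannot decide whether steps differ, and no ratio between steps was taken. Over the same steps in B1 and B2, Notch3 was at 13.9, 24.1, 25.3, 21.5, 9.84 and 16.7 CPM, the last values resting on 2 UMIs each. Notch2 in B1 and B2 was at 53.2, 51.4, 59.1, 87.3, 88.5 and 109 CPM, and Dll1 at 35.9, 35.0, 25.3, 15.2, 14.8 and 0 CPM, the 0 coming from 60 cells with an interval up to 30.9 CPM.

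**Figure D4:**
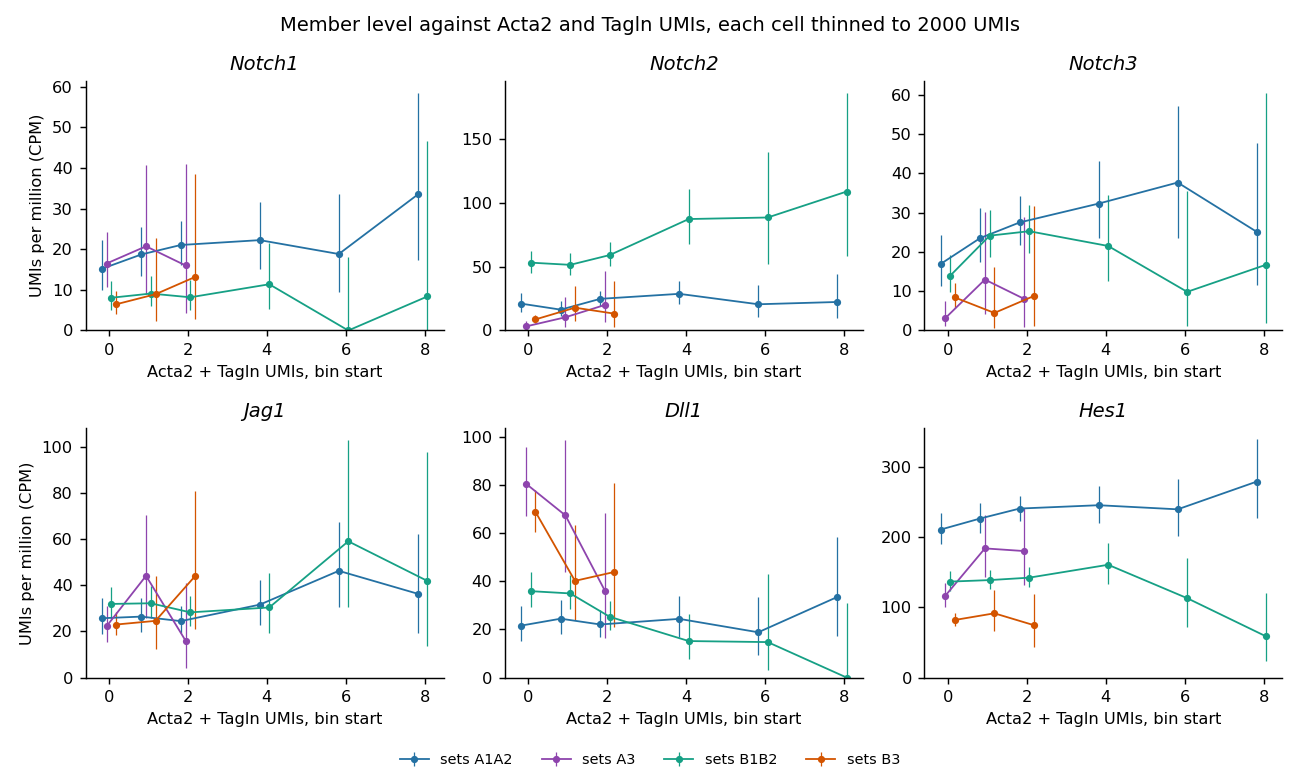
Level of 6 Notch genes (CPM) in cells grouped by their Acta2 and Tagln UMIs after thinning to 2000 UMIs per cell, for steps with at least 50 cells; lines join steps of the same sets and error bars are exact Poisson 95% intervals. Notch2 climbs from 53.2 to 109 CPM in B1 and B2 while Dll1 drops from 35.9 to 0 CPM there, and Dll1 stays between 18.8 and 33.5 CPM in A1 and A2.

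In the reverse view, Acta2 and Tagln together were compared between cells with and without a thinned UMI of each member. They were higher in the 750 Notch2 cells by a log2 ratio of 0.22 (0.14 to 0.30; 6 of 6 sets), in the 450 Notch3 cells by 0.19 (0.10 to 0.28; 4 of 6 sets), in the 685 Jag1 cells by 0.20 (0.12 to 0.29; 5 of 6 sets) and in the 322 Notch1 cells by 0.21 (0.10 to 0.32; 4 of 6 sets). They were lower in the 843 Dll1 cells by -0.28 (-0.38 to -0.18) and differed little in the 3029 Hes1 cells, 0.04 (-0.01 to 0.08). These values mix classes, and Acta2 was at 290 CPM in PDGFRA-high and 801 CPM in other mesenchyme. Neither ratios within a class nor the share over all genes are given for this view.

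Joint detection of the members in the same cell was described at 8000 UMIs in A1 and A2, over 45 pairs. Cells with a Notch3 UMI more often had a Jag1 UMI (24.6% against 17.6%, odds ratio 1.53, 1.26 to 1.85) and less often a Dll1 UMI (11.1% against 15.1%, odds ratio 0.71, 0.55 to 0.91). Notch2 cells also had Dll1 less often (10.5% against 15.1%, odds ratio 0.66, 0.50 to 0.86). Notch1 cells held Heyl more often (7.08% against 3.39%, odds ratio 2.18, 1.495 to 3.17), from 39 cells with both, and Hey1 (4.72% against 2.97%, odds ratio 1.62, 1.04 to 2.52). Hey2 cells also held Heyl more often (8.40% against 3.75%, odds ratio 2.37, 1.25 to 4.49), from 11 cells. Nrarp was more frequent with Jag1 (2.61, 1.14 to 5.98) and with Hey2 (4.30, 1.27 to 14.6), from 9 and 3 cells. For Notch3 the odds ratio with Heyl was 1.09 (0.72 to 1.64) and with Hes1 1.01 (0.85 to 1.21). Of the 9 pairs of Notch3 with another member, 1 interval lay above 1 and 1 below, where 4.19% of 6486 genes lay above and 3.42% below. Notch1 cells had a Notch2 UMI less often (13.1% against 16.8%, odds ratio 0.74, 0.57 to 0.97). Of the 45 pairs, those without Notch3 that are named here are the ones whose intervals excluded 1. A share over all genes is given for Notch3 alone, so the other pairs have no such background. The counts of both genes share each cell's UMI total, so these values are a description.

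At 2000 UMIs in all 6 sets the counts were too small for most pairs. No odds ratio of Notch3 with another member had an interval above 1 or below 1, where 3.84% of 6253 genes had one above and 3.69% one below. None of these ratios reached 2, which 0.048% of the genes did. The ratio of Notch3 with Jag1 was 1.37 and with Dll1 0.62. Notch1 kept its relation to Heyl, with 3.66 (1.75 to 7.66), but from 8 cells.

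**Figure D5:**
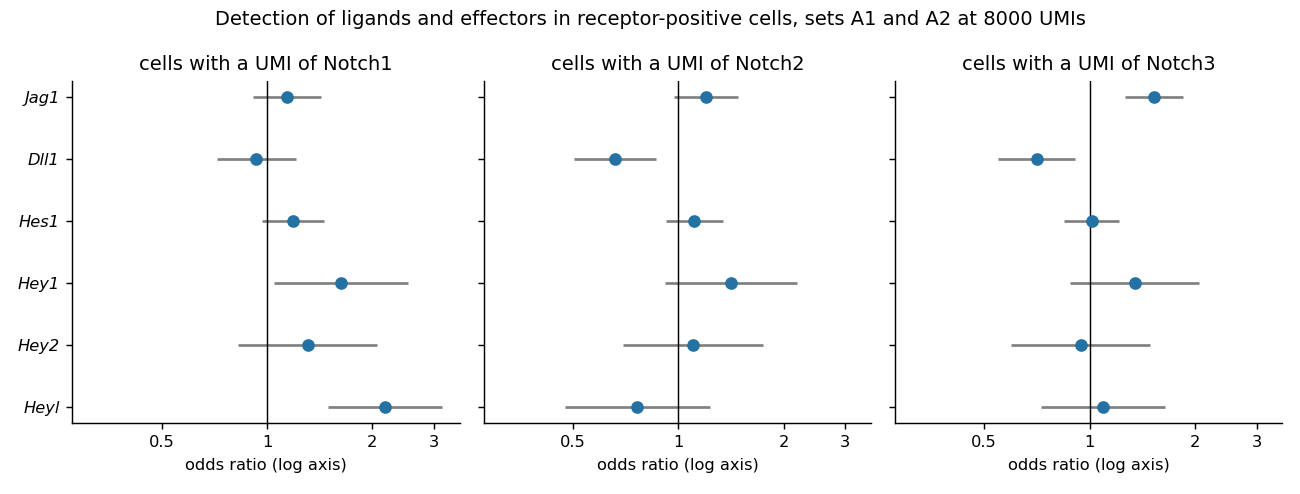
Odds ratio (log axis) of finding a UMI of each ligand or effector in cells with a UMI of Notch1, Notch2 or Notch3 against cells without, in A1 and A2 thinned to 8000 UMIs per cell; lines are 95% counting intervals. Jag1 lies above 1 for Notch3 (1.53), Dll1 below 1 for Notch2 and Notch3 (0.66 and 0.71), and Heyl above 1 for Notch1 (2.18).

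The wider pathway was followed as 48 genes. Of these 28 were tested in ending A, with 2 called higher and 2 lower in A3, and 24 in ending B, with 2 higher and 2 lower in B3, near the shares for all genes given above. The same 4 genes were called in both endings. Dlk1, a non-canonical ligand, was at 94.9 CPM in A3 against 545 in A1 and A2, and at 75.4 CPM in B3 against 312 in B1 and B2. Dtx4, a ubiquitin ligase of the Deltex family, was at 15.3 against 56.3 CPM and at 14.1 against 33.4 CPM. Maml2, a Mastermind coactivator, was higher, at 25.4 against 6.92 CPM and at 53.2 against 20.0 CPM. Neurl1a, a ubiquitin ligase for ligands, was at 25.8 against 8.11 CPM and at 20.8 against 6.17 CPM.

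The core machinery differed little. Rbpj had log2 ratios of 0.01 in A3 and -0.31 in B3, and none of the tested proteases and nuclear repressors reached 2-fold in either ending. Of the glycosyltransferases that modify Notch, Pofut1 (0.03) and Poglut1 (0.01) were tested, in ending A only. Mib1, a ubiquitin ligase for ligands, had 0.41 and 0.69. Among proteases the gamma-secretase subunit Ncstn had the largest ratios, 0.75 and 0.91, and Adam17 (0.03, ending A) and Psenen (0.14, ending B) the smallest. Among the repressors Ncor1 had the largest ratio in ending A (0.25) and Spen in ending B (0.41), where Ctbp2 had the smallest (-0.05). Numb, an inhibitor of Notch, had 0.92 in A3, and Dtx3 0.74 in B3. Hes6 was at 32.3 against 25.01 CPM in ending A and at 45.4 against 24.4 CPM in ending B.

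The remaining receptors and ligands were scarce. Notch4, a receptor of endothelium, was at 3.20, 2.40 and 6.997 CPM in A1, A2 and A3 and at 3.88, 4.03 and 12.01 CPM in B1, B2 and B3. Dlk2 was at 0.323, 0.348 and 6.89 CPM and at 1.89, 3.04 and 13.4 CPM in the same order. Dll4, an endothelial ligand, was at 0.162, 0.174 and 1.72 CPM in the A sets and at most 0.368 CPM in the B sets. Jag2 ranged from 0.358 to 1.94 CPM and Dll3 from 0.108 to 1.79 CPM. Cdh5, an endothelial marker, was also highest in the number 3 set of each ending. It was at 1.68, 1.18 and 16.7 CPM in A1, A2 and A3 and at 2.29, 1.79 and 7.48 CPM in B1, B2 and B3. Between A3 and B3 the order differed, since Notch4 was higher in B3 and Cdh5 in A3. Notch4 was also higher in PDGFRA-high than in other mesenchyme, at 9.36 against 2.80 CPM. The log2 ratio was 1.74 (1.45 to 2.03) and was above 0 in 6 of 6 sets, with intervals above 0 in A1, B1 and B2. The part of endothelial transcripts in the Notch4 and Dll4 values was not tested.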

How the data were processed

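Single-cell libraries of mouse small intestine (6 samples in 4 groups) were captured with 10x chemistry for 3' ends, per the labels' protocols. Cell Ranger 2.1.1, Seurat and the build mm10 are named in the submitters' processing notes. The authors deposited 1 matrix of raw UMI counts per gene symbol and barcode; the gene and barcode names are the only other deposited columns used, and 0 columns of other samples were used. The annotation is not given in the sources used here.

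Cells with under 1000 genes or over 5% mitochondrial UMIs (439 cells) and 62 called doublets were left out; the caller (Scrublet in scanpy) marked under 0.5% of cells and is not taken to have worked, so doublets may remain. Total UMIs per set ranged from 8156903 to 30931548. UMIs were summed and divided by set or class totals (CPM). Intervals are exact Poisson, Clopper-Pearson or conditional binomial at 95% (scipy 1.17.1), or normal on the log scale for Mantel-Haenszel ratios; they cover counting error only. For a count of 0 a floor of 3 counts was set, and the exact intervals printed for such counts reach somewhat higher. Clusters were made in each ending with leidenalg 0.10.2 at resolution 1 without Notch and smooth muscle genes. To be called PDGFRA-high, a cluster needed 3 of 10 fixed markers at 2-fold over the rest. Other lineages needed 3 markers at 4-fold. Where both held, PDGFRA-high was kept if it had at least as many markers. The remaining mesenchyme was taken by collagen and related markers reaching 100 CPM. The endings rest on different gene lists (21286 and 18172 genes with counts, 17344 in both), so they were fitted apart. The ratio and pooling steps were checked on simulated Poisson counts, which hold no spread between cells. Thinning was checked on cells of the matrix itself. All 10 members and every other receptor and ligand are named, and of other pathway genes those with the largest or smallest ratio in their role, except that 1 such result is not reported here. The members and lists were chosen with earlier results of these data known. Alternatives changed the cell filter, doublets, averaging, reference set, thinning depth, contractile ranking and clustering.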

Additional observations from a re-analysis of the deposited data

How the results depend on the processing

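No paired analysis was possible because no test was made and the barcode sets are tied to no sample or replicate. The counts of members called in the set comparisons were the same under all alternatives run; between classes the count lower was 3 in place of 2 at clustering resolution 0.5. No called ratio changed sign, but within the PDGFRA-high class Hes1 in ending A (not called, -0.50) was 0.39 and 0.60 at resolutions 0.5 and 2. In the contractile comparison the number of members 2-fold lower was 1 in place of 0 with Tagln alone (Dll1, -1.08) and in sets of number 3 alone (Dll1, -1.11). The number of Notch3 pairs with an odds ratio interval above 1 was 1 at 1000 UMIs, 2 at 3000 UMIs, 1 within other mesenchyme and 1 at 8000 UMIs in A1 and A2, against 0; the cause was not tested. Ranking by Acta2 alone gave Notch3 0.57 in contractile-rich cells and thinning to 1000 UMIs gave Jag1 -0.11, against -0.13 and 0.62. Without cells holding a Rgs5, Kcnj8 or Abcc9 UMI the ratios were 0.97 for Notch2, 0.14 for Jag1 and -0.85 for Notch3. The alternatives within a class, in sets 1 and 2 or sets 3 alone, without dividing or pericyte transcripts and at 8000 UMIs were chosen after seeing the data. Depth limits Hey1, Hey2, Heyl and Nrarp, which stayed under 20 CPM in every set.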
